A study of Homo sapiens with 6 samples.

Results

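hsa-miR-143-3p, hsa-miR-143-5p, hsa-miR-145-5p and hsa-miR-145-3p are the mature arms of 2 microRNA (miRNA) hairpins that lie side by side on chromosome 5. They were followed here in whole MIO-M1 cells and in the extracellular vesicles (EV) that these cells release. The 4 arms were taken by name from the deposited count tables, which list 2576 mature miRNAs. They were selected on their measured values in these libraries, because the arms of one hairpin were higher in EV and the arms of the other were lower. The contrast between EV and whole cells is therefore given for these 4 arms as a description, without a test.

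MIO-M1 is an established, spontaneously immortalised human Müller glial line with the genotype label WT. Both groups come from this single line without any other treatment of the cells than the culture described here. The whole cell group held 3 libraries, from passages 22, 24 and 26, and the EV group held 3 libraries, from passages 23, 25 and 27, and they are numbered 1 to 3 in that order within each group. Cells were grown in DMEM with 10% FCS and 1% penicillin/streptomycin, and EV were pelleted by serial centrifugation from conditioned medium, which the labels call serum-free and the methods of the study vesicle-depleted. Intact EV were treated with RNase A before extraction. Cell RNA was isolated with the RNeasy kit and EV RNA with the Total Exosome RNA Isolation Kit. The kit, the RNase A step and the conditioned medium thus cannot be told apart from the group. No label ties a cell sample to an EV sample, and the labels name no separate cultures beyond the passages, so the spread between libraries may be partly technical.

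A miRNA gene is transcribed as a long primary RNA, cut to a hairpin in the nucleus and cut again in the cytoplasm to a short duplex. One strand of the duplex, the guide, is usually kept by an Argonaute protein and pairs with target messages through its seed, bases 2 to 8. The other strand is usually degraded. miR-143 and miR-145 are known for their high level in smooth muscle and other mesenchymal cells, where they favour the contractile state. They are commonly described as products of one primary transcript, the host gene CARMN. The usual guides are miR-143-3p and miR-145-5p, and miR-143-5p and miR-145-3p are the usual passenger strands.

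The mature sequences from RefSeq (GRCh38.p14) are shown because the 4 arms differ at the bases that select targets. Capitals mark the seed.
hsa-miR-143-3p: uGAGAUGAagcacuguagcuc
hsa-miR-143-5p: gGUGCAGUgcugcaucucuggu
hsa-miR-145-5p: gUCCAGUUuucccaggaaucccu
hsa-miR-145-3p: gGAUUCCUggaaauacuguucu

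No seed was shared among the 4 arms. Of the mature miRNAs in the RefSeq table that the count tables also list, hsa-miR-4770 and hsa-miR-6088 have the seed of miR-143-3p, and none has the seed of any other arm. Both had a count of 0 in all 6 libraries. Of the listed miRNAs matched to this seed, miR-143-3p was thus the only one with counts.

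The hairpins are shown to give the place of each arm, with the arms in capitals. The 5p arm comes first in each.
MIR143: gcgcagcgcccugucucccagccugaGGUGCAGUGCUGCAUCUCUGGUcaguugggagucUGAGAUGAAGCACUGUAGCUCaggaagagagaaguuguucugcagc
MIR145: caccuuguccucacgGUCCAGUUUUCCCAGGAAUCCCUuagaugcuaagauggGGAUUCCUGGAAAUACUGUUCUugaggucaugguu

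In GRCh38.p14 the MIR143 hairpin lies on the plus strand at chr5:149428918-149429023 and the MIR145 hairpin at chr5:149430646-149430733, with 1622 bases between them. miR-143-3p occupies chr5:149428978-149428998 and miR-145-5p chr5:149430661-149430683. Both hairpins are inside CARMN, which GENCODE 29 places at chr5:149406689-149432835 on the plus strand with 12 transcripts. The 1 transcript that spans both hairpins has MIR143 in an exon and MIR145 in an intron. The count tables name no genome build and give other positions, but the distance between miR-143-3p and miR-145-5p is 1662 bases in both.

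The depth behind each value below is the total count of its library, with 396025 to 3990900 counts for whole cells and 1225541 to 3134561 for EV. Levels are given as CPM, in which counts are scaled by that total, with an exact 95% binomial interval for each library. A count of 0 was taken to allow 3 counts, which is between 0.957 and 2.45 CPM in the EV libraries. These intervals and limits cover counting error only, since no step that merges copies of one starting molecule is named for these counts. Whole cell replicates 1, 2 and 3 held counts for 586, 1058 and 811 miRNAs. EV replicates 1, 2 and 3 held counts for 431, 427 and 329, with the fewest in the deepest EV library. Loss of miRNAs from EV libraries beyond counting error is not covered by the limits. In EV, a smaller share of vesicles with a miRNA and fewer copies in each vesicle cannot be told apart in such pooled material. The filter of the study asks for 5 CPM or more in 3 or more libraries, and it kept 430 miRNAs and 3 of the 4 arms. miR-145-3p reached 5 CPM in 1 library and was not kept.

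miR-143-3p, the guide strand of its hairpin, was the most abundant of the arms in all 6 libraries. Whole cell replicates 1, 2 and 3 held 207, 1480 and 433 counts of it, which is 523 CPM (interval 454 to 599), 371 CPM (352 to 390) and 346 CPM (314 to 380.0). EV replicates 1, 2 and 3 held 2724, 9687 and 6777 counts, which is 2223 CPM (2140 to 2308), 4752 CPM (4658 to 4847) and 2162 CPM (2111 to 2214). The lowest EV level was above the highest whole cell level, and EV replicate 2 lay apart from the other EV libraries. The whole cell mean was 413 ± 95.7 CPM (SD, n = 3) and the EV mean was 3045 ± 1478 CPM (SD, n = 3), a ratio of 7.37. By rank it was the 94th, 110th and 111th most abundant miRNA of whole cell replicates 1, 2 and 3, and the 50th, 41st and 50th of EV replicates 1, 2 and 3.

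miR-145-5p, the guide strand of the neighbouring hairpin, had counts in every whole cell library and in no EV library. Whole cell replicates 1, 2 and 3 held 67, 532 and 135 counts of it, which is 169 CPM (131 to 215), 133 CPM (122 to 145.1) and 108 CPM (90.4 to 128), and ranks of 144, 160 and 168. The mean was 137 ± 30.8 CPM (SD, n = 3). All 3 EV libraries held 0 counts, with upper limits of the exact interval at 3.01, 1.81 and 1.18 CPM in EV replicates 1, 2 and 3. With 3 counts set in each EV library, the mean level in EV was at least 84.1-fold lower than in whole cells, as far as counting error goes. The whole cell and EV libraries did not overlap, as the lowest whole cell level was 44.0 times the highest of these EV limits.

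The passenger strands were at low levels in every library. For miR-143-5p, whole cell replicates 1, 2 and 3 held 4, 15 and 2 counts (10.1, 3.76 and 1.60 CPM), and EV replicates 1, 2 and 3 held 21, 0 and 89 counts (17.1, 0 and 28.4 CPM). The groups overlapped, because EV replicate 2, which had the highest level of miR-143-3p, held no count of miR-143-5p. The whole cell mean was 5.15 ± 4.42 CPM (SD, n = 3) and the EV mean was 15.2 ± 14.3 CPM (SD, n = 3), so the difference was smaller than the spread of the EV libraries. For miR-145-3p, whole cell replicates 1, 2 and 3 held 2, 8 and 3 counts (5.05, 2.01 and 2.40 CPM), and each EV library held 0. The limit of 3 counts reached into the range of these whole cell levels in EV replicate 1 (2.45 CPM). It lay below that range in EV replicates 2 and 3 (1.47 and 0.957 CPM) and over the pooled EV counts (0.469 CPM). The whole cell levels of miR-145-3p rest on at most 8 counts in a library, with intervals that reach down to 0.494 CPM. No size of difference is therefore given for that arm.

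**Figure D1:**
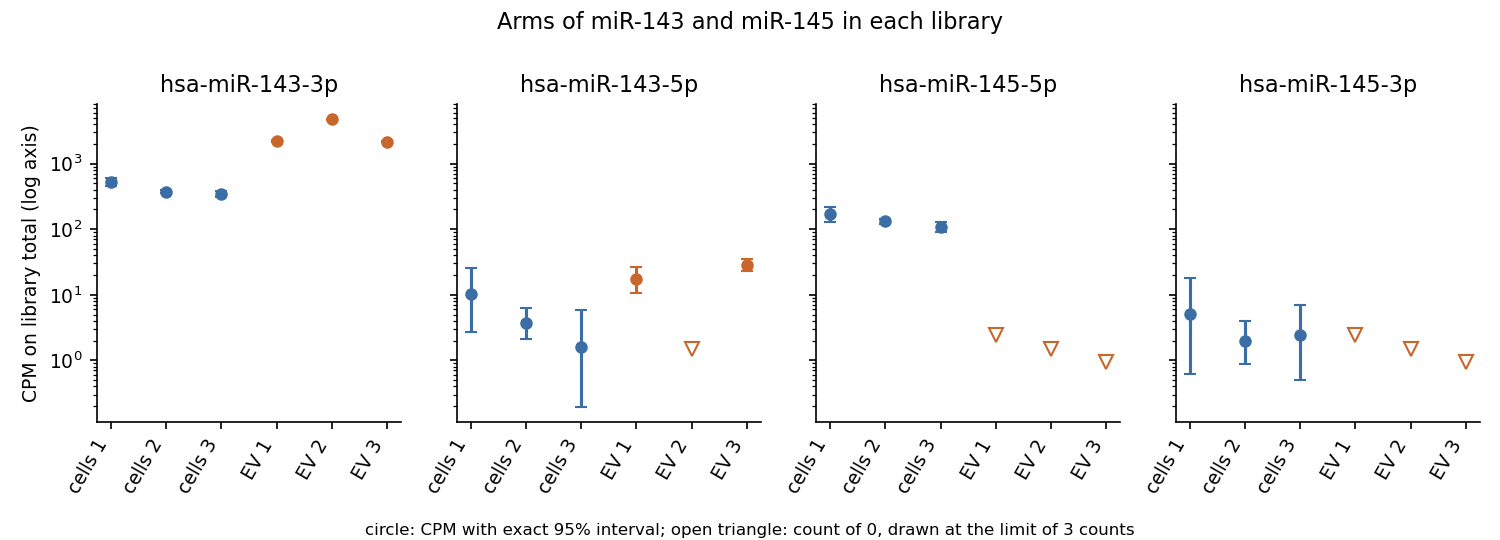
Level of each arm (CPM on the library total, log axis) in the 3 whole cell libraries (blue) and the 3 EV libraries (orange). Circles are the CPM with the exact 95% interval, and open triangles are counts of 0 drawn at 3 counts. miR-143-3p lies between 346 and 523 CPM in cells and between 2162 and 4752 CPM in EV, while miR-145-5p lies between 108 and 169 CPM in cells and has 0 counts in EV.

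In the edgeR fit across the 430 miRNAs, a miRNA was called at an adjusted p below 0.01 and a log2 fold change of at least 2.5. Of the 3 arms past the filter, 1 (miR-143-3p) was called higher in EV, where 4.42% of all tested miRNAs were, and 1 (miR-145-5p) was called lower, where 1.40% were. Overlap of the groups was judged on CPM scaled by edgeR's TMM factors. The groups did not overlap with EV on the higher side for 1 of the 3 (miR-143-3p), as for 20.9% of all tested miRNAs. They did not overlap with EV on the lower side for 1 (miR-145-5p), as for 27.4%. These counts restate the choice of the arms, and nothing is read from them. With each library left out in turn, each of the 2 arms met the call rule in 1 of 6 fits, the one without EV replicate 3, and missed it without EV replicate 1 or 2 or any whole cell library. The fitted log2 fold change (EV against whole cells) of miR-143-3p was 2.85 (SE 0.35) and that of miR-143-5p was 1.84 (SE 1.70). Each SE, here and below, is the absolute log2 fold change divided by the square root of edgeR's F statistic. Over all 430 miRNAs the median was -0.23, with quartiles of -1.72 and 1.29, and 55 miRNAs had a higher value than miR-143-3p. Scaling by edgeR's RLE factors or by DESeq2 moved the median of all miRNAs by -0.18, and miR-143-3p stayed between 3.01 and 3.10 above the median under the 5 scalings run.

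The ratio of the 2 guides within a library does not depend on any scaling between libraries. In whole cells, miR-143-3p made up 75.5% (interval 70.0 to 80.5) of the 274 counts of miR-143-3p and miR-145-5p in replicate 1, 73.6% (71.6 to 75.5) of 2012 in replicate 2 and 76.2% (72.5 to 79.7) of 568 in replicate 3. The 3 intervals overlapped, and the mean was 75.1 ± 1.39% (SD, n = 3), or 3.03 ± 0.22 counts of miR-143-3p for each count of miR-145-5p. In EV the share was 100% in all 3 libraries, with lower limits of 99.86%, 99.96% and 99.95% on 2724, 9687 and 6777 counts. With 3 counts set for miR-145-5p, the ratio was at least 908, 3229 and 2259 in EV replicates 1, 2 and 3. The whole cell ratio would have placed 900.1, 3201 and 2239 counts of miR-145-5p beside the miR-143-3p counts of these libraries. The whole cell level alone would have placed 168, 279 and 429 counts of miR-145-5p in them.

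**Figure D2:**
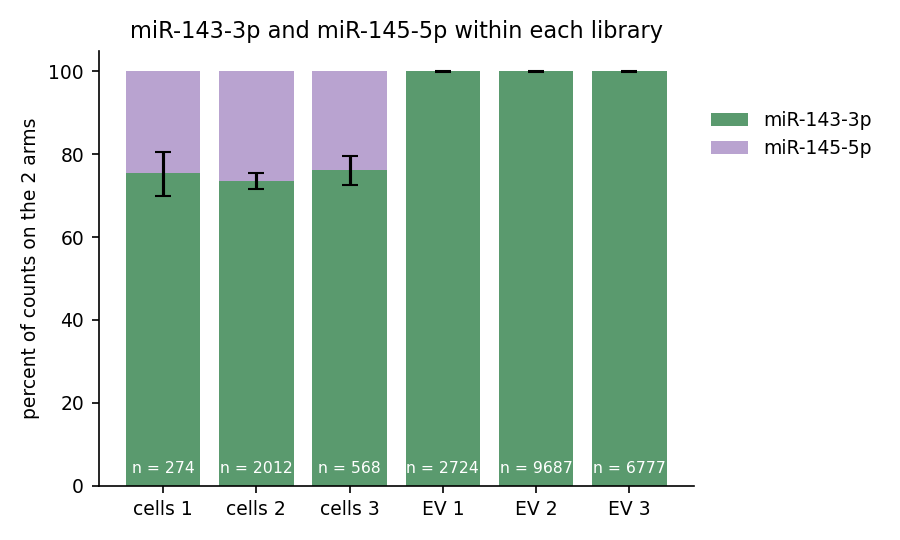
Percent of the summed counts of miR-143-3p and miR-145-5p that came from each, in each library, with n the number of counts and bars the exact 95% interval of the miR-143-3p share. The whole cell libraries sit between 73.6% and 76.2% miR-143-3p, and the EV libraries at 100%.

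The balance of the 2 strands within each hairpin was also measured, because both strands come from 1 duplex. Of the miR-143 counts, the 3p arm held 98.1% (95.2 to 99.5), 99.0% (98.4 to 99.4) and 99.5% (98.4 to 99.9) in whole cell replicates 1, 2 and 3. It held 99.2% (98.8 to 99.5), 100% (99.96 to 100) and 98.7% (98.4 to 99.0) in EV replicates 1, 2 and 3. The whole cell mean of 98.9 ± 0.725% (SD, n = 3) and the EV mean of 99.3 ± 0.652% (SD, n = 3) were closer together than the spread within either group. EV replicate 2 nevertheless differed from the other EV libraries beyond counting error. At the pooled whole cell ratio, EV replicates 1, 2 and 3 would have held 26.98, 95.96 and 67.13 counts of miR-143-5p, against 21, 0 and 89 observed. The 5p share was 0.765% (0.474 to 1.17) in EV replicate 1, 0% with an upper limit of 0.0381% in EV replicate 2, and 1.30% (1.04 to 1.59) in EV replicate 3. In whole cells the 5p arm of miR-145 held 97.1% (89.9 to 99.7), 98.5% (97.1 to 99.4) and 97.8% (93.8 to 99.5) of the miR-145 counts in replicates 1, 2 and 3. The usual guide was therefore the main strand of both hairpins wherever counts were found.

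The count of 0 for miR-145-5p in EV was set against all listed miRNAs of like level in whole cells. Of the 122 miRNAs with a mean of 50 to 500 CPM in whole cells, 5 (4.10%) had 0 counts in all EV libraries, and 77 had counts in all 3. Of those with 5 to 50 CPM, 50 (24.6%) had 0 counts in all EV libraries. The 64 miRNAs with 500 to 5000 CPM and the 38 above 5000 CPM had counts in every EV library. A mean whole cell level above that of miR-145-5p was found for 158 miRNAs, and 1 of these, miR-331-3p with 172 CPM, also had 0 counts in all EV libraries. A further 10 at or above that level were missing from 1 or 2 EV libraries. The next miRNA below miR-145-5p with 0 counts in all EV libraries was miR-424-3p, with 76.8 CPM in whole cells.

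**Figure D3:**
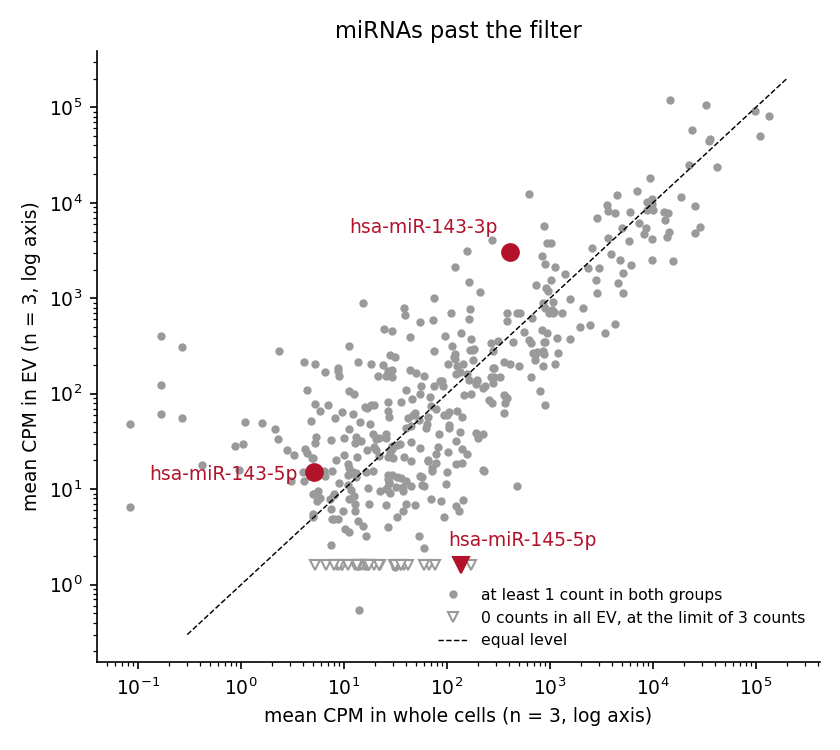
Mean CPM in EV against mean CPM in whole cells (n = 3 each, log axes) for the miRNAs past the filter. Open triangles are miRNAs with 0 counts in all EV libraries, drawn at the mean limit of 3 counts (1.63 CPM), and miR-451a, with 0 counts in all whole cell libraries, is not drawn. miR-143-3p lies above the line of equal level at 413 and 3045 CPM, miR-143-5p lies near it at 5.15 and 15.2 CPM, and miR-145-5p lies in the row of triangles at 137 CPM.

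Other neighbouring miRNAs were examined in the same way. Pairs were formed from miRNAs past the filter that lie on 1 strand within 10 kb of each other, with the more abundant arm of each hairpin. miRNAs listed at more than 1 genomic position were left out before the arm was chosen, so some members of these clusters are in no pair. Where the main arm was left out in this way, the rarer arm stood in. miR-16-2-3p, with 10.9 CPM in whole cells and 18.4 CPM in EV, thus entered a pair, and miR-16-5p, with 32620 and 104600 CPM, did not. The pair of miR-15b-5p and miR-16-2-3p is among those with opposite signs below. This gave 289 pairs among 110 miRNAs, so 1 miRNA can be in many pairs, and 222 pairs lie on chromosome 14. The log2 fold changes had opposite signs in 50.2% of the pairs, and the median absolute difference within a pair was 2.35. miR-143-3p and miR-145-5p were the only pair on chromosome 5, with an absolute difference of at least 9.25, computed with miR-145-5p at its limit of -6.40. This difference restates the choice of the arms. As a lower limit it cannot be ordered against other pairs with a miRNA at 0 counts in a group, of which there were 33 in all.

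Of those pairs, 2 are named beside miR-143-3p and miR-145-5p, by their fitted differences. miR-18a-3p and miR-19a-3p belong to the miR-17-92 cluster on chromosome 13. miR-18a-3p, a passenger strand, had 26, 235 and 95 counts in whole cells and 0 in each EV library. miR-19a-3p, a guide strand, had 0, 2 and 0 counts in whole cells and 50, 262 and 50 in EV. miR-889-3p and miR-487a-5p lie in the imprinted miRNA cluster of chromosome 14. miR-889-3p had 11, 113 and 21 counts in whole cells and 576, 1562 and 605 in EV, while miR-487a-5p had 29, 178 and 77 counts in whole cells and 0 in each EV library. The other arms of the 2 hairpins at 0 in EV did not have lower means there. miR-18a-5p had 5.81 CPM in whole cells and 8.16 CPM in EV, and miR-487a-3p had 14.65 and 32.03 CPM. The opposite directions in these 2 pairs thus depended on the arm taken.

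**Figure D4:**
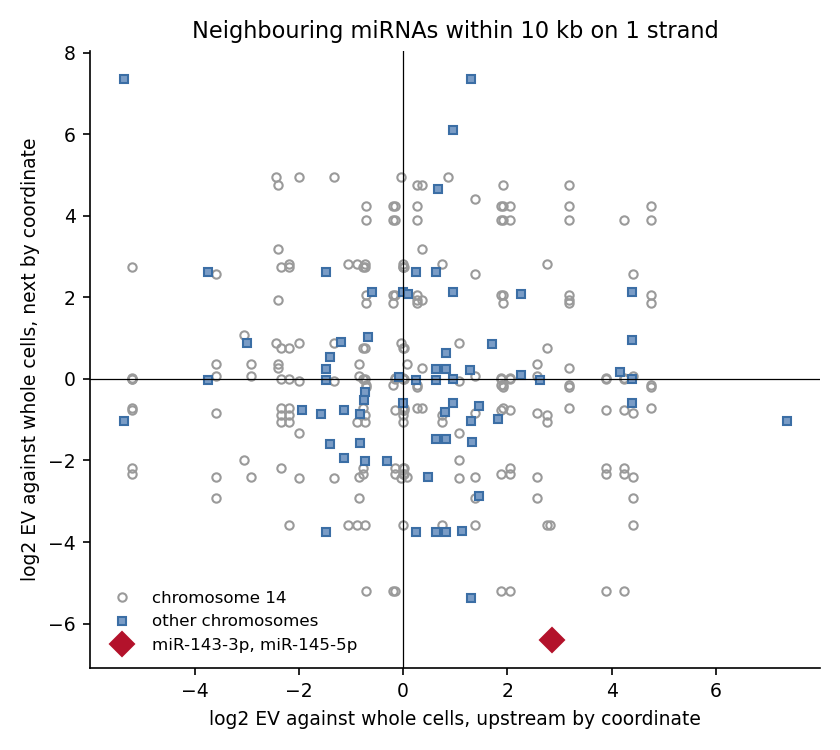
Log2 fold change (EV against whole cells) of the member with the lower coordinate (horizontal axis) and of the member with the higher coordinate (vertical axis) in 289 neighbouring pairs, with miRNAs at 0 counts in a group drawn at their limit. Pairs in the upper left and lower right have opposite signs, 50.2% of the total, and the red diamond is miR-143-3p and miR-145-5p at 2.85 and -6.40.

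The miRNAs with the pattern most like each guide over the 6 libraries were taken by Pearson's r of log2(CPM + 4). For this, CPM was also scaled by edgeR's TMM factors. For miR-143-3p these were miR-376a-3p (r = 0.996), miR-142-3p (0.99), miR-1 (0.986), miR-9-3p (0.983) and miR-889-3p (0.981). miR-376a-3p had 71, 392 and 100 counts in whole cells and 1456, 7503 and 4908 in EV, with the highest level in EV replicate 2 as for miR-143-3p. For miR-145-5p they were miR-29c-5p (0.997), miR-503-3p (0.996), miR-500a-5p (0.996), miR-770-5p (0.996) and miR-487a-5p (0.995), each with 0 counts in all EV libraries. miR-29c-5p, the closest, had 24, 152 and 35 counts in whole cells. These values share the same libraries and mainly reflect the step between the groups, and they are given as a description.

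Base composition moved with the contrast over all miRNAs, and its part in the values of the 4 arms was not tested. The mature sequence was matched for 391 of the 430 miRNAs. The median log2 fold change was 1.51 for the 66 with a GC content below 40%, 0.06 for the 126 from 40 to 50%, -0.68 for the 133 from 50 to 60% and -1.51 for the 66 at 60% or above. GC content was 47.6% for miR-143-3p, 59.1% for miR-143-5p, 52.2% for miR-145-5p and 40.9% for miR-145-3p. The linear trend on GC content had a slope of -1.006 per 10 percentage points. Measured from that trend line, miR-143-3p lay at 2.85 and miR-143-5p at 2.99. These 2 values also take out the offset of the line. Their zero is thus the line and not equal level, and they cannot be set directly against the fitted fold changes.

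Short motifs that have been linked to export in vesicles were searched on the mature strand. GGAG was held by 41 of the 391 sequences (10.5%), CCCU by 42 (10.7%) and GGCU by 56 (14.3%). CCCU occurs at position 20 of miR-145-5p, its 3′ end, as can be read in the sequence above, and none of the 3 motifs occurs in the other arms. A log2 fold change above 0 was found for 20 of the 41 with GGAG, 7 of the 42 with CCCU and 19 of the 56 with GGCU, against 178 of all 391. The medians were -0.05, -2.16 and -0.83, against -0.26 over all 391. These matches describe letters only.

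Other miRNAs studied beside miR-143 and miR-145 in smooth muscle and mesenchymal cells were taken as a list of 15, of which 10 passed the filter. Of these 10, edgeR called 2 (miR-21-5p and miR-1) higher in EV and 0 lower, where it called 4.42% and 1.40% of all 430. DESeq2 with the same thresholds called 3 higher, miR-199a-3p being the third, and 0 lower, where it called 9.77% and 6.98% of all 430. At an unadjusted p below 0.05 in the edgeR fit, 4 were higher and 2 were lower, against 17.2% and 18.6% of all 430. The median log2 fold change of the 10 was 1.02, against -0.23 over all 430, and 6 were above 0. With libraries left out in turn, the count of 2 became 1 without whole cell replicate 1 and 0 without whole cell replicate 2, whole cell replicate 3, EV replicate 1 or EV replicate 2. In those 4 fits, 4 were higher and 2 or 3 lower at an unadjusted p below 0.05.

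miR-21-5p, which is broadly expressed and promotes growth in many cell types, had a mean of 14530 CPM in whole cells and 117900 CPM in EV. Its log2 fold change was 3.11 (SE 0.434, adjusted p = 0.00448 by edgeR's quasi-likelihood test). miR-1, a miRNA of striated muscle, had 3, 19 and 4 counts in whole cells and 104, 683 and 620 in EV, and a log2 fold change of 5.30 (SE 0.89, adjusted p = 0.00858 by edgeR). miR-199a-3p, which shares its mature sequence with miR-199b-3p so that their counts cannot be assigned to 1 gene, had 10, 91 and 30 counts in whole cells and 299, 260 and 726 in EV. Its log2 fold change of 3.11 had an adjusted p of 0.016 by edgeR and was not called. Lower in EV were miR-221-3p, with means of 25710 CPM in whole cells and 9358 CPM in EV, and miR-222-3p, with 4617 and 1436 CPM. Their log2 fold changes were -1.40 (adjusted p = 0.0172 by edgeR) and -1.60 (adjusted p = 0.0213 by edgeR), and neither was called. miR-133b, miR-31-5p and miR-199a-5p had 0 counts in all 6 libraries. miR-214-3p had 2 counts in whole cell replicate 3 and 0 in each EV library.

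Markers of the cell line and of other cell types were measured beside these results. The 3 Müller glial markers (miR-204-5p, miR-9-5p and miR-125b-5p) all passed the filter. They summed to between 126900 and 131100 CPM in whole cells and to between 46480 and 95760 CPM in EV. None was called by edgeR or DESeq2, with 2 lower and 0 higher at an unadjusted p below 0.05 in the edgeR fit. They differed in direction. Means in whole cells and EV were 9798 and 2538 CPM for miR-204-5p, and 110500 and 49540 CPM for miR-125b-5p. For miR-9-5p they were 9383 and 18150 CPM, higher in EV. Of the 7 blood markers, 3 passed the filter and 1 (miR-142-3p) was called higher in EV, while DESeq2 called 2, with miR-451a. Their sum was 164 to 1163 CPM in whole cells and 1549 to 2312 CPM in EV. Most of it was miR-486-5p, at 164 to 1161 CPM in whole cells and 1197 to 1711 CPM in EV, which was not called (log2 fold change 0.78, adjusted p = 0.487 by edgeR). Of the 7, miR-451a, miR-142-5p and miR-144-3p had 0 counts in all whole cell libraries. Both endothelial markers, miR-126-3p and miR-126-5p, were called higher by both tools, with sums of 30.4 to 93.4 CPM in whole cells and 535 to 810.3 CPM in EV.

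Of the 7 striated muscle markers, 2 passed the filter, and they differed in direction. miR-1 was called higher by both tools, and miR-133a-3p had a mean of 25.3 CPM in whole cells and 6.75 CPM in EV (log2 fold change -2.08, adjusted p = 0.411 by edgeR). miR-206 had 190 counts in EV replicate 3 and 0 in every other library. miR-133b, miR-208a-3p and miR-208b-3p had 0 counts in every library, and miR-499a-5p had 0 in every EV library. The sum of the 7 was 27.8 to 37.5 CPM in whole cells and 91.4 to 349 CPM in EV. The liver marker miR-122-5p had 7.58 to 11.2 CPM in whole cells and 91.2 to 199.9 CPM in EV, with an adjusted p of 0.0124 by edgeR, and DESeq2 called it. The 3 photoreceptor markers summed to 227 to 333 CPM in whole cells and 1151 to 1218 CPM in EV, and none was called by either tool, with 2 higher and 0 lower at an unadjusted p below 0.05.

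Over all 430 miRNAs, 4.42% were called higher by edgeR and 9.77% by DESeq2, and the marker calls depended on single libraries. The call of miR-142-3p was lost without whole cell replicate 1 or 3 and without EV replicate 1 or 2. The 2 endothelial calls became 1 with RLE factors or without whole cell replicate 1, and 0 without whole cell replicate 2 or 3 and without EV replicate 1 or 2. The call of miR-1 was lost with RLE factors and on leaving out any single library other than EV replicate 3. The summed level of each of the 5 lists for other cell types was higher in EV in every library, the direction of miR-143-3p. Within the striated muscle list, miR-133a-3p and miR-499a-5p had lower mean levels in EV, the direction of miR-145-5p. The part of these cell types in either result was not tested.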

How the data were processed

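Small RNA libraries were made with the QIAseq miRNA Library Kit from 3 whole cell and 3 EV samples. The authors trimmed and aligned the reads and deposited raw counts of reads per mature miRNA for each library, without normalization. Per the file headers, featureCounts 1.5.0-p1 was run with strand setting 1 on a miRBase 20 annotation and Bowtie 1 alignments, whereas the methods of the study name Bowtie2 and another miRBase release. No genome build is named.

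Samples were grouped by the fraction in their labels. The 4 arms and all lists of miRNAs were chosen with earlier results of these data known. Other named miRNAs followed a rule: those sharing a seed with an arm, the 5 most correlated with each guide, the 3 neighbouring pairs with the largest fitted difference, called or most abundant members of the smooth muscle list, and the leading markers of each cell type list. miR-331-3p, miR-424-3p, miR-199a-3p, miR-18a-5p, miR-487a-3p and miRNAs named for counts of 0 were named after their values had been seen.

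CPM was computed on column totals of 396025 to 3990900 counts, and log2 values used a pseudocount of 4. Replicates were compared before averaging. Replicates differed by a chi-square of at least 21.5 per degree of freedom, so none was a copy of another. Pearson's r of log2 values was 0.922 to 0.994 within whole cells, 0.868 to 0.893 within EV and 0.734 to 0.795 between the groups. For miRNAs reaching 5 CPM in 3 or more libraries, raw counts entered the quasi-likelihood test of edgeR 4.0.16 under R 4.3.3. TMM factors scaled the library totals within the fit, and p-values had Benjamini-Hochberg adjustment. DESeq2 1.42.0, other scalings, no filter, another adjusted p, a GC trend, other distances, a pseudocount of 1 and each library left out were alternatives. The alternative without chromosome 14 was chosen after seeing the data. Shares used exact (Clopper-Pearson) 95% intervals. Sequences were taken from RefSeq, with names matched for 2268 of 2576 miRNAs, and host transcripts from GENCODE 29. Python 3.11.15 with matplotlib 3.10.9 drew the figures.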

Additional observations from a re-analysis of the deposited data

How the results depend on the processing

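Across 20 results and 107 alternative values, 90 stayed within the limits set for them, 17 moved and 0 changed sign. Only log2 fold changes and differences of log2 values can change sign, so the 0 covers those values alone. The 90 include the 2 values measured from the GC trend line. Their zero differs from that of the fitted fold changes. The sign of the fold change of miR-143-3p, miR-143-5p and miR-145-5p was the same in 11 of 11 alternative fits. The number of miRNAs called moved most. It was 25, against 72 with DESeq2, 38 with upper-quartile factors, 45 without the filter and 93 at an adjusted p below 0.05. With a library left out it ran from 0 to 31, and was 16, 7 and 0 without whole cell replicates 1, 2 and 3 and 11, 0 and 31 without EV replicates 1, 2 and 3. In the 2 edgeR fits with 0 calls, 121 (without whole cell replicate 3) and 169 (without EV replicate 2) miRNAs had an unadjusted p below 0.05, against 154 with all libraries and 177 by DESeq2. The number called in the smooth muscle list was 2, 1 with RLE factors, and 0 to 2 with a library left out. The cause was not tested. The log2 fold change of miR-143-3p ran from 2.41, without EV replicate 2, to 2.92. The limit for miR-145-5p ran from 69.8-fold to 113-fold with a library left out, and was 81.1-fold on TMM-scaled CPM. The difference of mean log2 values of miR-145-5p was -5.11 with a pseudocount of 4 and -7.08 with 1. Neighbouring pairs with opposite signs made up 43.9% within 2 kb and 47.8% of the 67 pairs outside chromosome 14. No paired analysis was possible because the labels give the groups no number in common, and the numbers 1 to 3 used here only order the passages within a group. Depth limits miR-143-5p and miR-145-3p most, with at most 89 and 8 counts in a library.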
